A study of Caenorhabditis elegans with 36 samples.

Results

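The major sperm protein (MSP) genes of *Caenorhabditis elegans* were followed through total, monosome-associated and polysome-associated RNA of WT animals and of animals carrying either of the *ppp-1* alleles *wrm10* and *wrm15*. The members were all loci with a single gene name that begins with *msp-* or *msd-* and a number. This rule found 39 of 41875 loci, namely 35 *msp* and 4 *msd* loci, and used no measured value. No locus with several joined gene names held a member. Of the 39 members, 37 had a mean of at least 1 FPKM (fragments scaled to transcript length and library size) over the 9 groups and were counted, as were 12488 of the 38790 loci with a single name. The remaining members, *msp-32* and *msp-37*, had means of 0.10 and 0.13 FPKM and are given by their levels only.

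The samples were synchronized gravid adults at day 1 of adulthood, grown on OP50 bacteria without further treatment before harvest. Cycloheximide was present in a wash at harvest, in the lysis buffer and in the gradients. Each of the 9 groups had 4 libraries by the labels. WT was Bristol N2, and *ppp-1(wrm10)* and *ppp-1(wrm15)* were strains mutated in *ppp-1*, which encodes the gamma subunit of eIF2B, the factor that reloads the initiation factor eIF2 with GTP. Both alleles arose by chemical mutagenesis of CF512, *fer-15(b26); fem-1(hc17)*, a strain with temperature-sensitive sterility caused by mutations in genes needed for sperm, and were outcrossed to N2. The mutants are named below by their allele. Whether sperm-related alleles or linked changes of the screened strain were left in the outcrossed animals was not tested. Each lysate gave total RNA and, after a sucrose gradient, a monosome (80S) fraction and a polysome fraction without disomes. The deposited table holds 1 pooled FPKM per locus and group, and its columns of the authors' own tests were not used. No spread between libraries, no standard deviation and no test is therefore given, and every difference reported here lacks a replicate check.

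MSPs are small, abundant cytoskeletal proteins of nematode sperm. They polymerize into the filaments that drive the crawling of the amoeboid sperm cell, and MSP released from sperm is also a hormone that triggers oocyte maturation and ovulation. In hermaphrodites the genes are transcribed in spermatocytes before the germ line switches to oocytes, and the genes are known to be transcribed in males as well. Many near-identical copies lie in clusters on the autosomes. The *msd* genes encode smaller proteins with an MSP domain.

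By position (assembly WBcel235), 15 members lay on chromosome II, 1 on chromosome III (*msd-4*) and 23 on chromosome IV. Those on chromosome II lay between positions 4785861 and 5810342. Chromosome IV held a group of 10 between 5055593 and 5316944 and a group of 13 between 9688982 and 10144175. RefSeq listed 35 members as protein coding and 4 as pseudogenes (*msp-42*, *msp-71*, *msp-52* and *msp-37*), and all 35 coding members had a single exon in the Ensembl annotation. Of the coding *msp* genes, 28 had the same coding length of 127 codons, whereas *msp-74* and *msp-58* had 77 codons and *msp-32* had a length between these. The 4 *msd* genes had 109 codons. Because the copies resemble each other, a read can fit several of them, and how shared reads were divided in the deposited values is not given in the sources used here. Levels of single members are therefore uncertain, and the family sum is given beside them. In addition, 6 members overlapped another annotated gene (*msp-31*, *msp-33*, *msp-37*, *msp-38*, *msp-45* and *msd-2*), and it is not given whether the counting used strand.

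Summed over the 39 loci, the family was at 5574 FPKM in WT total RNA, 6998 FPKM in WT monosome RNA and 10761 FPKM in WT polysome RNA. In *wrm10* the sums were 5134 FPKM in total, 5998 FPKM in monosome and 6942 FPKM in polysome RNA. In *wrm15* they were 5457 FPKM in total, 6458 FPKM in monosome and 7325 FPKM in polysome RNA. The family thus had a similar level in the total RNA of the 3 genotypes, and WT polysome RNA stood apart with the highest sum. Relative to WT, the polysome sum was 35.5% lower in *wrm10* and 31.9% lower in *wrm15*. In total RNA the corresponding differences were 7.90% and 2.11%, and in monosome RNA 14.3% and 7.71%. The 2 alleles were close to each other: the *wrm15* sum was 1.06 times the *wrm10* sum in total, 1.08 times in monosome and 1.06 times in polysome RNA. As a share of the FPKM of all loci with a single name, the family made up 1.22% of WT polysome RNA, against 0.868% and 0.879% in the alleles. The same shares in total RNA were 0.480% in WT, 0.444% in *wrm10* and 0.453% in *wrm15*. In monosome RNA they were 0.826%, 0.777% and 0.851% in the same order, so that by share *wrm15* was above WT. FPKM is a relative measure, and how libraries were normalized is not given, so these values are not amounts per animal. For the total RNA of whole animals, fewer sperm cells cannot be told apart from less MSP mRNA per cell. The source of the wider difference in polysome RNA was not tested.

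**Figure D1:**
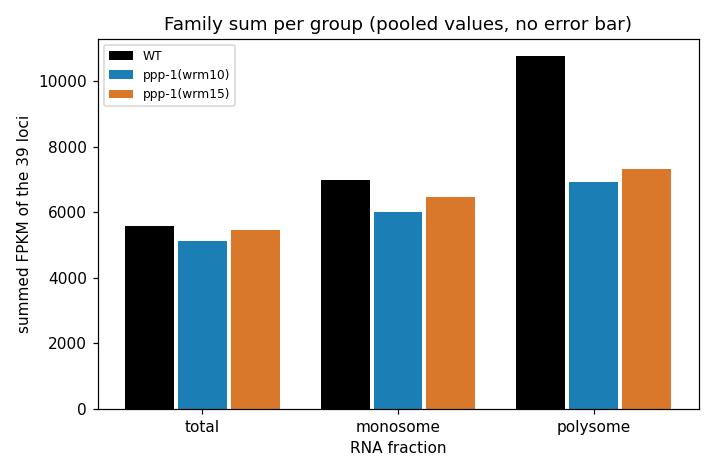
Summed FPKM of the 39 *msp* and *msd* loci (vertical axis, from 0) in each RNA fraction (horizontal axis) and genotype (bar colour). Each bar is a sum of pooled group values, so no error bar can be drawn. WT polysome RNA had the highest bar, at 10761 FPKM, against 6942 and 7325 FPKM in the mutants.

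Member levels in WT total RNA ran from 0.95 FPKM (*msd-3*) to 353 FPKM (*msp-40*) with a median of 143 FPKM, and 21 members were at 100 FPKM or more. In WT polysome RNA the median was 273 FPKM and 26 members reached 100 FPKM. Among all loci with a single name, 12 members were within the first 500 by level in WT total RNA, and 20 in WT polysome RNA. The 6 highest members within each group held 33.04% of the family sum in WT total RNA and 33.4% in WT polysome RNA, so that the sum was spread over many copies.

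**Figure D2:**
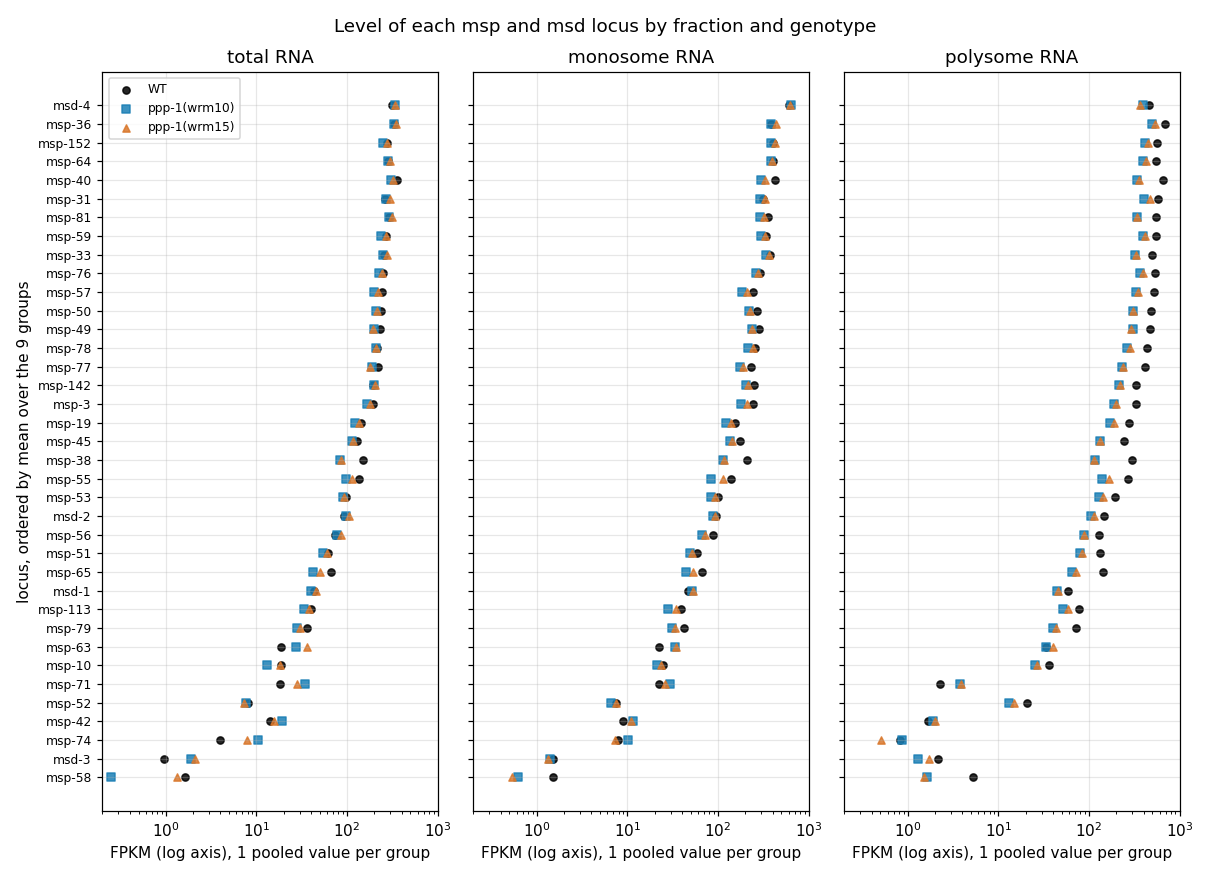
FPKM (log axis) of the 37 counted members, ordered by their mean over the 9 groups, in total, monosome and polysome RNA. Each point is 1 pooled value of a genotype (black circle WT, blue square *wrm10*, orange triangle *wrm15*). In polysome RNA the WT point was the highest of the 3 in 33 of 37 members.

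The member with the highest mean over the 9 groups was *msd-4*, which encodes one of the smaller MSP-domain proteins and lies alone on chromosome III (4868333 to 4868769). In total RNA it was at 309 FPKM in WT, 340.5 in *wrm10* and 335 in *wrm15*. Its monosome values were 607, 639 and 629 FPKM in the same order. Its polysome values were 460.4, 392 and 366 FPKM. Unlike most coding members, *msd-4* was highest in the monosome fraction in all 3 genotypes. The next highest was *msp-36*, a coding gene of the common length on chromosome IV, with 333 FPKM in WT total, 331 in *wrm10* total and 345 in *wrm15* total RNA. In monosome RNA it was at 387, 384 and 431 FPKM. In polysome RNA *msp-36* was at 695, 499 and 539.9 FPKM. Its total level was therefore nearly equal in the 3 genotypes, while its polysome level in the alleles was 71.8% and 77.7% of the WT level.

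*msp-40*, on chromosome II, had 353, 306 and 325 FPKM in total RNA of WT, *wrm10* and *wrm15*. It had 429.5, 302 and 331 FPKM in monosome RNA. In polysome RNA it had 649, 337 and 360.3 FPKM, which left the alleles at 51.9% and 55.5% of WT. This was a wider gap than for the other members among the 6 with the highest mean over the 9 groups. Of these, *msp-152* had 274, 250.1 and 278 FPKM in total RNA and 569, 412 and 452 FPKM in polysome RNA. *msp-64* had 283, 285 and 300.3 FPKM in total RNA and 548, 394 and 428 FPKM in polysome RNA. *msp-31*, whose deposited locus overlaps *aagr-2*, had 265, 272 and 298 FPKM in total RNA and 582, 409 and 469.8 FPKM in polysome RNA. For *msp-152*, *msp-64* and *msp-31* both mutant polysome values were below the WT polysome value, and both were above the WT total value.

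Comparing fractions within WT animals asks how far a message was represented in polysomes relative to its level in the lysate. Here and below, a ratio of FPKM is given as log2 after adding 0.1 FPKM to each value, which understates ratios of low members. A 2-fold difference (1 on this scale) is used as a mark of size and not as a test. Between WT polysome and WT total RNA, the median member had a log2 ratio of 0.95 (1.94-fold), against 0.10 over all counted loci. At least 2-fold higher levels in polysomes were found for 14 of 37 members, against 6.81% of counted loci (5 members after centring on the median of all counted loci), and 3 members were at least 2-fold lower, against 18.2% of counted loci. At 1.5-fold, 32 members were higher in polysomes, against 26.4% of counted loci. The highest log2 ratios belonged to *msp-58* (1.64), *msp-52* (1.36) and *msp-31* (1.13), and the lowest to *msp-42* (-3.01), *msp-71* (-2.94) and *msp-74* (-2.13). The 28 coding *msp* genes of the common length all lay between 0.74 and 1.13. This was a narrow range beside that of the counted loci as a whole, whose quartiles were -0.68 and 0.61. Reads shared between these copies can make their ratios alike, so the narrow range is a description only.

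The monosome fraction differed less from total RNA. The median log2 ratio of WT monosome to WT total RNA was 0.25 for the members and -0.05 for all counted loci, and 0 of 37 members were 2-fold higher or lower, against 2.38% and 10.7% of counted loci. *msp-74* (0.99), *msd-4* (0.97) and *msd-3* (0.63) had the highest values, and *msp-42* (-0.64), *msp-52* (-0.09) and *msp-58* (-0.08) the lowest. Between WT polysome and WT monosome RNA the median log2 ratio was 0.60 for the members and 0.01 for all counted loci. Here 5 of 37 members were at least 2-fold higher in polysomes, against 10.9% of counted loci, and 3 were at least 2-fold lower, against 11.8%. At 2-fold, the share of members higher in polysomes was thus near that of all counted loci, while 21 members were at least 1.5-fold higher, against 24.1% of counted loci. The highest ratios were those of *msp-58* (1.72), *msp-52* (1.44) and *msp-51* (1.18), and the lowest those of *msp-71* (-3.23), *msp-74* (-3.13) and *msp-42* (-2.36).

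Among the 3 fractions of WT animals, polysome RNA held the highest level for 33 of 37 members. The exceptions were *msp-42*, highest in total RNA, and *msp-71*, *msp-74* and *msd-4*, highest in monosome RNA. In *wrm10* polysome RNA was the highest fraction for 29 members and in *wrm15* for 27. *msp-33* and *msp-45* on chromosome II and *msd-1* on chromosome IV had their highest level in monosome RNA in both alleles but in polysome RNA in WT.

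The comparison of each allele with WT in total RNA asks whether message levels differed before fractionation. The median member had a log2 ratio of -0.13 in *wrm10* and -0.04 in *wrm15*, close to the -0.06 and -0.03 of all counted loci. In *wrm10*, 1 of 37 members was at least 2-fold higher (*msp-74*), against 5.71% of counted loci, and 1 was at least 2-fold lower (*msp-58*), against 0.737%. In *wrm15*, 1 of 37 was at least 2-fold higher (*msd-3*), against 4.95% of counted loci, and 0 were 2-fold lower, against 0.969%. All 3 of these members had means below 10 FPKM. At any size of difference, 21 of 37 members were lower than in WT in both alleles, as were 48.0% of counted loci. Both alleles were set against the same WT libraries, so a deviation of those libraries would enter both ratios.

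In monosome RNA the median log2 ratio of the members was -0.24 in *wrm10* and -0.14 in *wrm15*, against -0.04 and -0.03 over all counted loci. In each allele 0 members were 2-fold higher, against 6.75% of counted loci in the former and 6.07% in the latter. In each allele 1 member was at least 2-fold lower (*msp-58*), against 0.705% and 1.07% of counted loci. The members with the highest values were *msp-63* (0.57 and 0.60 in *wrm10* and *wrm15*), *msp-71* (0.42 and 0.22), *msp-74* (0.36 and -0.11) and *msp-42* (0.33 and 0.28). The 3 lowest were *msp-58* (-1.16), *msp-38* (-0.88) and *msp-55* (-0.72) in *wrm10* and *msp-58* (-1.34), *msp-38* (-0.83) and *msp-40* (-0.37) in *wrm15*.

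The members stood furthest from the other loci in polysome RNA. Their median log2 ratio to WT was -0.63 in *wrm10*, against -0.05 over all counted loci, and -0.55 in *wrm15*, against -0.01. Only 2.62% of counted loci in *wrm10* and 4.31% in *wrm15* were at or below the median member. At 1.5-fold, 20 of 37 members were lower in *wrm10*, against 3.16% of counted loci, and 17 of 37 in *wrm15*, against 3.82%. At 2-fold the counts were 3 of 37 in *wrm10* (*msp-58*, *msp-38* and *msp-65*), against 0.969% of counted loci, and 2 of 37 in *wrm15* (*msp-58* and *msp-38*), against 1.08%. In neither allele was a member 2-fold higher, against 4.70% and 4.33% of counted loci. As deposited, the family's lower polysome level was thus spread over many members at a moderate size. How reads shared between copies were divided is not given, so the members cannot be taken as separate differences. In both alleles at once, 33 of 37 members were lower by any amount (44.03% of counted loci) and 16 were lower by at least 1.5-fold (1.79% of counted loci). The exceptions to the lower level in both alleles were *msp-42*, *msp-63*, *msp-71* and *msp-74*. Both alleles were set against the same pooled WT polysome values, here and in the polysome to total ratios below. A deviation of those WT values would therefore enter both alleles, and their agreement is not an independent check.

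**Figure D3:**
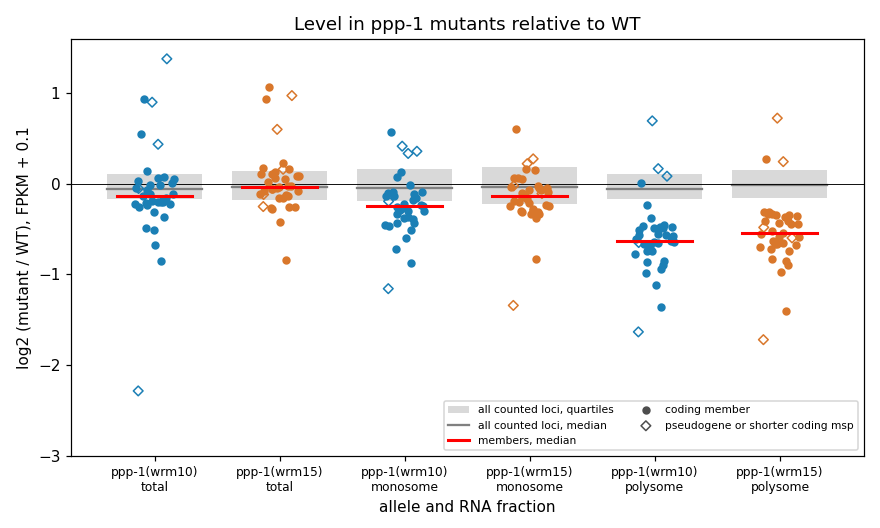
Log2 ratio of each allele to WT in total, monosome and polysome RNA for the 37 counted members (points; open diamonds are annotated pseudogenes and the coding *msp* genes of 77 codons), with the member median in red and the median and quartiles of all counted loci in grey. The member medians were -0.13 and -0.04 in total RNA and -0.63 and -0.55 in polysome RNA.

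In polysome RNA *msp-38* and *msp-65* showed the widest differences from WT among the coding members of the common length. *msp-38*, on chromosome IV at 10143312 to 10143775, was at 151 FPKM in WT total RNA, 83.7 in *wrm10* and 84.6 in *wrm15*. Its monosome values were 209.6, 114 and 118 FPKM. Its polysome values were 301, 117 and 114 FPKM, or 38.9% and 37.7% of WT in the alleles. For *msp-38* the mutants were thus lower in all 3 fractions, with log2 ratios of -0.85 and -0.84 already in total RNA, and its deposited locus overlaps *dhs-12*. *msp-65*, at 5316487 to 5316944 of the same chromosome, was at 67.1, 42.1 and 50.1 FPKM in total RNA. It was at 67.0, 44.3 and 53.0 FPKM in monosome RNA and at 143, 65.7 and 72.4 FPKM in polysome RNA. Its polysome log2 ratios were -1.12 in *wrm10* and -0.98 in *wrm15*. *msp-77*, whose log2 ratio of *wrm15* to WT in total RNA (-0.28) was the third lowest, had 220.1, 188 and 181 FPKM in total and 419, 231 and 235.5 FPKM in polysome RNA.

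*msp-63*, on chromosome II, ran the other way. Its total level was 18.7 FPKM in WT, 27.5 in *wrm10* and 35.9 in *wrm15*. Its monosome level was 22.3, 33.3 and 34.04 FPKM. Its polysome level was 33.2, 33.3 and 40.3 FPKM, so that the mutants were higher than WT in total and monosome RNA but nearly level with it or slightly higher in polysome RNA. *msp-142*, at 5797893 to 5798341, is the neighbouring member on the other strand and had 191, 198 and 202 FPKM in total and 333, 213 and 221 FPKM in polysome RNA. Despite their neighbouring positions, the polysome log2 ratios of *msp-142* were -0.64 and -0.59, against 0.01 and 0.28 for *msp-63*.

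The *ppp-1* comparison most directly tied to translation sets the polysome to total ratio of an allele against that of WT. For the family sum, this ratio was 1.93 in WT, 1.35 in *wrm10* and 1.34 in *wrm15*. The ratio of the monosome to the total sum varied less, at 1.26, 1.17 and 1.18. The ratio of the polysome to the monosome sum was 1.54, 1.16 and 1.13. The median member's polysome to total ratio differed from that of WT by -0.48 on the log2 scale in each allele, against -0.02 over all counted loci in *wrm10* and 0.00 in *wrm15*. It was lower than in WT in both alleles for 33 of 37 members, against 39.5% of counted loci. At 1.5-fold, 10 of 37 members had a lower ratio in *wrm10*, against 3.50% of counted loci, and 12 of 37 in *wrm15*, against 3.82%. At 2-fold the counts were 2 of 37, against 1.16%, and 3 of 37, against 1.38%. In either allele 0 of 37 members had a 2-fold higher ratio, against 1.16% and 1.19% of counted loci. The members at 2-fold were low ones, namely *msd-3* and *msp-74* in both alleles and *msp-58* in *wrm15*. Within the mutants the median log2 polysome to total ratio of the members was 0.47 in *wrm10* and 0.45 in *wrm15*. Over all counted loci it was lower, at 0.05 and 0.06. At 2-fold, 1 of 37 members in *wrm10* and 0 of 37 in *wrm15* were higher in polysomes, against 5.12% and 5.92% of counted loci.

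**Figure D4:**
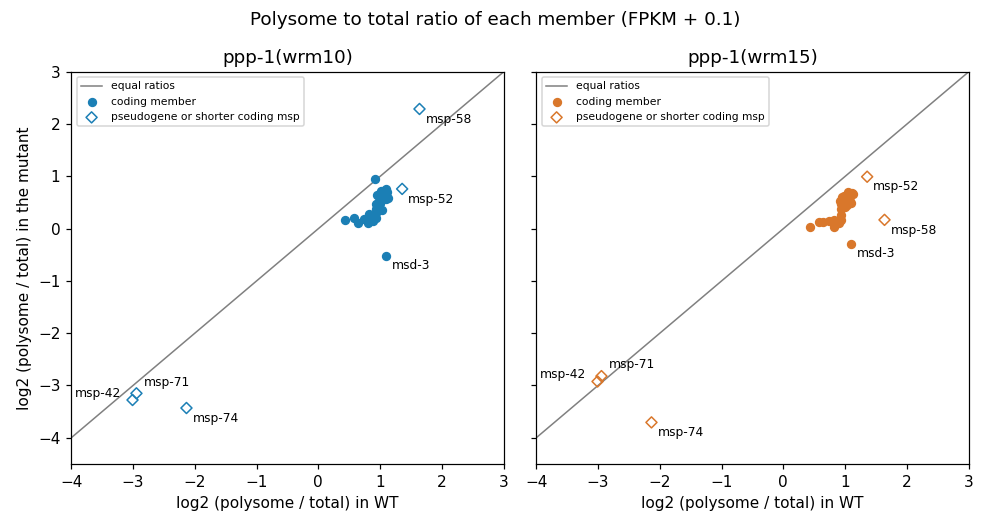
Log2 polysome to total ratio of each counted member in WT (horizontal axis) and in each allele (vertical axis); points below the diagonal had a lower ratio in the mutant, and open diamonds are annotated pseudogenes and the coding *msp* genes of 77 codons. The main group of coding members lay below the diagonal in both alleles, apart from *msp-10* in *wrm10*, and *msp-42*, *msp-71* and *msp-74* lay far below 0 in every genotype.

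Among the 6 members with the highest mean, *msp-40* had the widest change of the ratio, at -0.74 in *wrm10* and -0.73 in *wrm15*. *msp-36* was at -0.47 and -0.42, *msp-31* at -0.54 and -0.48 and *msd-4* at -0.37 and -0.44. The highest values were found for *msp-58* (0.65), *msp-10* (0.03) and *msp-71* (-0.21) in *wrm10* and for *msp-71* (0.12), *msp-42* (0.08) and *msp-113* (-0.33) in *wrm15*. *msp-10* illustrates that a ratio can stay level while both of its terms are lower. It had 18.9 FPKM in WT total, 13.2 in *wrm10* total and 18.3 in *wrm15* total RNA. In polysome RNA *msp-10* had 35.9, 25.6 and 26.6 FPKM.

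The members of each chromosomal group differed from WT to a similar extent. In polysome RNA the median log2 ratios of *wrm10* and *wrm15* were -0.56 and -0.57 for the 14 counted members on chromosome II. They were -0.66 and -0.56 for the 10 members of the first group on chromosome IV, and -0.62 and -0.50 for the 12 counted members of the second. Other counted loci within the same intervals were near 0 in polysome RNA, with medians of -0.03 and 0.00 over 200 loci on chromosome II, 0.07 and 0.05 over 52 loci in the first group on chromosome IV and -0.04 and -0.07 over 95 loci in the second. The *ppp-1* gene itself, listed as *eif-2Bgamma*, lies 1155 kb from the last member on chromosome II. It was at 25.7 FPKM in WT total, 23.6 in *wrm10* total and 24.5 in *wrm15* total RNA.

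Apart from *msd-4*, the *msd* genes lay on chromosome IV. *msd-2*, whose deposited locus overlaps an unnamed annotated gene, was at 93.2, 98.3 and 105 FPKM in total RNA and at 146, 106 and 114.6 FPKM in polysome RNA. *msd-1* was at 43.2, 39.9 and 45.2 FPKM in total RNA and at 58.2, 44.8 and 45.9 FPKM in polysome RNA. Both of these *msd* genes were lower in polysome RNA of the mutants, with log2 ratios between -0.46 and -0.34. *msd-3* was at 0.95, 1.92 and 2.103 FPKM in total RNA and at 2.14, 1.31 and 1.71 FPKM in polysome RNA, and was listed under another gene name, *msd-1*, in the Ensembl annotation used here. The median polysome log2 ratio of the 4 *msd* genes was -0.42 in *wrm10* and -0.34 in *wrm15*, against -0.64 and -0.59 for the 28 coding *msp* genes of the common length.

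The annotated pseudogenes did not all follow the family. *msp-42*, between *msp-3* and *msp-40* on chromosome II, had 14.1, 19.2 and 15.8 FPKM in total RNA of WT, *wrm10* and *wrm15*. Its monosome values were 9.01, 11.4 and 10.9 FPKM and its polysome values 1.67, 1.89 and 2.00 FPKM. *msp-71*, also on chromosome II, had 18.3, 34.3 and 27.8 FPKM in total, 22.3, 29.7 and 26.002 FPKM in monosome and 2.29, 3.77 and 3.85 FPKM in polysome RNA. Both loci were thus far lower in polysome than in total RNA in every genotype, and higher in the mutants than in WT in every fraction. *msp-52*, on chromosome IV, had 8.002, 7.72 and 7.36 FPKM in total and 20.7, 13.1 and 14.8 FPKM in polysome RNA. Although annotated as a pseudogene, *msp-52* therefore followed the coding members, being higher in polysomes and lower there in both alleles than in WT. The remaining pseudogene, *msp-37*, was listed at 0 in 5 of the 9 groups and at 0.32 FPKM at most, and the coding gene *msp-32* was at 0.20 FPKM at most.

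The coding genes of 77 codons differed from each other. *msp-74*, on chromosome II, had 3.91, 10.3 and 7.78 FPKM in total RNA and 7.88, 10.1 and 7.30 FPKM in monosome RNA. Its polysome values were 0.81, 0.87 and 0.50 FPKM, so that it shared the low polysome level of *msp-42* and *msp-71*. *msp-58*, on chromosome IV, had 1.61, 0.25 and 1.34 FPKM in total RNA and 1.52, 0.62 and 0.54 FPKM in monosome RNA. Its polysome values were 5.23, 1.62 and 1.52 FPKM, and the counting error at levels this low is unknown here.

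Other sperm genes were read from the same RNA. Of 47 listed sperm genes outside the family, 41 matched a single-name locus and all 41 were counted. Their median log2 ratio to WT in total RNA was 0.35 in *wrm10* and 0.30 in *wrm15*, where the members were at -0.13 and -0.04. In monosome RNA it was 0.62 and 0.64, and in polysome RNA 0.25 and 0.20, where the members were at -0.63 and -0.55. The change of the polysome to total ratio of these genes was -0.19 and -0.18, with 30 and 27 of 41 genes below 0, against 53.6% and 49.9% of counted loci. At least 2-fold higher total levels were found for 7 of 41 genes in *wrm10*, against 5.71% of counted loci, and 8 of 41 in *wrm15*, against 4.95%. In each allele 1 of 41 was at least 2-fold lower, against 0.737% and 0.969% of counted loci. The genes at 2-fold in both alleles included *spe-19*, *spe-27*, *spe-29*, *spe-38*, *ssp-16* and *ssp-34* on the higher side and *ssp-19* on the lower side.

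*ssp-16* and *ssp-19*, which share a family name, differed from WT in opposite directions. *ssp-16* had 52.3 FPKM in WT total, 348 in *wrm10* total and 369 in *wrm15* total RNA, and its polysome values were 60.1, 409.97 and 452 FPKM. *ssp-19* had 23.1, 9.24 and 10.98 FPKM in total and 35.2, 10.8 and 10.2 FPKM in polysome RNA. Among abundant sperm genes outside the family, some had a change of the polysome to total ratio like that of the members (chosen after their values were seen), namely *gsp-3* (-0.68 and -0.60), *ssp-10* (-0.52 and -0.67), *ssp-33* (-0.61 and -0.83), *ssp-34* (-0.64 and -0.63) and *htas-1* (-0.52 and -0.63), or a wider one, namely *sss-1* (-1.52 and -1.13). Other listed sperm genes above *ssp-33* in WT total RNA had smaller changes or changes in the other direction. These were *ssp-31* (-0.30 and -0.40), *ssp-35* (-0.24 and -0.31), *ssp-11* (-0.11 and -0.09), *ssp-16* (0.03 and 0.09) and *spe-39* (0.18 and 0.23). Sperm genes thus did not share a single pattern in the mutants, and a lower ratio was found outside the family as well.

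**Figure D5:**
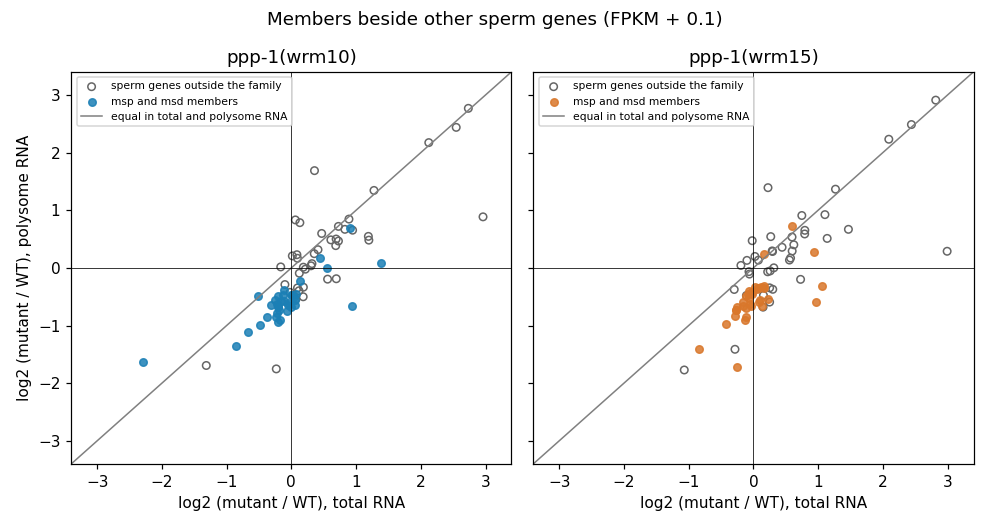
Log2 ratio of each allele to WT in total RNA (horizontal axis) and polysome RNA (vertical axis) for the 37 counted members (filled) and 41 counted sperm genes outside the family (open circles), with a line where both ratios are equal. Most members lay near 0 on the horizontal axis and below 0 on the vertical axis, with medians of -0.13 and -0.63 in *wrm10*.

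Genes that act on the MSP protein or sense it were read from lists as well. Of 13 listed genes for the packaging, polymerization and motility of MSP, 9 were counted, with median total log2 ratios of 0.41 in *wrm10* and 0.30 in *wrm15*. Of 15 listed genes through which oocytes and sheath cells sense MSP, 15 were counted, with medians of 0.05 and 0.01 in total and -0.02 and 0.04 in polysome RNA. None of these sensing genes was 2-fold higher or lower in total RNA in both alleles. Other tissues were read from marker lists. The 22 counted oocyte and early embryo genes had median total log2 ratios of -0.02 and 0.15 and polysome log2 ratios of -0.03 and 0.30. In total RNA the medians were 0.01 and 0.06 for 11 intestinal genes, 0.01 and -0.11 for 10 muscle genes and -0.04 and 0.01 for 9 genes of the hypodermis and cuticle. In polysome RNA they were -0.22 and -0.09, -0.12 and -0.28, and -0.07 and -0.12 in the same order, nearer to 0 than the medians of the members. In monosome RNA they were -0.29 and -0.27, -0.34 and -0.44, and -0.40 and -0.27, further from 0 than the members at -0.24 and -0.14. Within WT, the median log2 polysome to total ratio of these 3 lists was 0.71, 0.56 and 0.76, where the members were at 0.95. High WT ratios were thus found outside the family as well, while the oocyte and early embryo genes were at -1.14. The polysome to total ratio was also lower than in WT for 11 and 11 of 11 intestinal genes (medians -0.24 and -0.17), 7 and 10 of 10 muscle genes (-0.13 and -0.17) and 8 and 8 of 9 hypodermis and cuticle genes (-0.28 and -0.15), where the members were at -0.48 in each allele. The hypodermis and cuticle list was not uniform in total RNA, since *dpy-7*, *rol-6*, *sqt-3* and *bli-1*, which encode cuticle collagens, had log2 ratios between 0.47 and 0.99 in the alleles. Of 8 listed genes of male tissues, 7 had a mean below 1 FPKM, and the summed level of the 8 in total RNA was 15.5 FPKM in WT, 13.1 in *wrm10* and 11.5 in *wrm15*. Most of that sum was *swm-1*, at 14.7, 11.1 and 10.1 FPKM, while *clec-207* was at 0.17, 1.12 and 0.72 FPKM. The part of differences in tissue or sperm content in the members' values was not tested.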

How the data were processed

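RNA of WT animals and of both *ppp-1* mutants was sequenced from total lysates, monosomes and polysomes after depletion of ribosomal RNA, with 36 libraries in all. Per the labels and the methods of the study, the authors mapped reads with HISAT2 2.1.0, assembled transcripts with StringTie 1.3.4d and merged and quantified them with Cufflinks 2.2.1 (Cuffmerge, Cuffquant, Cuffdiff) on WBcel235 with Ensembl release 91. The values the authors deposited are FPKM, pooled into 1 value per locus and group. Library normalization, strand use and the treatment of reads that fit several loci are unknown (not given in the sources used here), as are depth and precision. The table also holds log2 fold changes, test statistics, p-values, q-values and calls of the authors' own comparisons, which were not used.

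For 11 comparisons (3 between WT fractions, 6 of an allele with WT, 2 of the polysome to total ratio), log2 ratios of FPKM + 0.1 were computed with Python 3.11.15, numpy 2.4.6 and pandas 2.3.3 for loci with 1 name and a mean of at least 1 FPKM. The steps were tested on simulated data. Members were matched by symbol and position to RefSeq (39 of 39) and to Ensembl release 115, both on WBcel235. Named members were the 6 highest and 4 lowest by mean, all *msd* genes, and the 3 highest and 3 lowest in each comparison. *msp-142*, *msp-33*, *msp-45*, *msp-32* and *msp-37* were named after their values were seen. Genes of the lists were named at 2-fold in both alleles in total RNA, and not all that met this are reported here. The members and lists (sperm genes, MSP packaging, MSP sensing, oocyte and embryo, intestine, muscle, hypodermis, male tissues) were chosen with earlier results of these data known. Alternatives were other pseudocounts, minimum levels, folds, centring and member sets. No sequence is printed.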

Additional observations from a re-analysis of the deposited data

How the results depend on the processing

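With 1 pooled value per group, no library values or depth, and the authors' tests not used, the differences are given without an error. The 11 median ratios and 11 ratios of the family sum were recomputed with other pseudocounts (1 FPKM and none), minimum levels (none and 10 FPKM), centring, *msp* members only, and without the highest member. After the data were seen, medians without annotated pseudogenes and members overlapping another gene were added. Of 88 values, 85 stayed within 0.1 of the reported log2 value and none of the 88 changed sign. The exceptions were the median WT polysome to total ratio, 0.85 after centring on all counted loci (0.95 as reported), and the median WT polysome to monosome ratio (0.60 as reported), 0.74 with *msp* members only and 0.74 without pseudogenes and overlapping members. The median polysome ratio to WT ranged from -0.64 to -0.58 in *ppp-1(wrm10)* and from -0.59 to -0.52 in *ppp-1(wrm15)*. The count of members 2-fold higher in WT polysome than total RNA was 5 after centring (14 as reported). Counts of members at 2-fold stayed within 1.5 times the reported count in 132 of 176 cases, and the others included those at 1.5-fold given in the text. No paired analysis was possible because the deposited values are pooled into 1 value per group, and for the same reason no library could be left out. Members with identical proteins were not merged, since protein sequences were not used here, and no locus with joined names held a member.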

Other observations

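Among 7243 loci outside the family with a mean of at least 10 FPKM, those whose 9 group values correlated most with the median member (Pearson's r of log2 values, a description over 9 pooled values that share libraries) were *C04G2.9* (0.98), *Y57G11C.52* (0.96), *T10E9.4* (0.96), *T27E7.1* (0.95) and *F11E6.3* (0.94). *C04G2.9* lies on chromosome IV at 10112870 to 10114287, within the second group of members on that chromosome. It was at 193, 165 and 176 FPKM in total RNA (WT first, then *wrm10* and *wrm15*) and at 359.7, 190.04 and 207.2 FPKM in polysome RNA. *F11E6.3*, also on chromosome IV, was at a higher level than any member in total and polysome RNA, with 599.95, 487 and 504 FPKM in total RNA and 1102, 737 and 762 FPKM in polysome RNA. Both loci had a lower polysome level in both alleles with a smaller difference in total RNA, as most members did. They were picked for likeness over these same values, so this shared pattern follows from the choice.

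Within the family, the members whose pattern was least like that of the median member were *msp-74*, *msp-71*, *msp-42* and *msp-63*, with r between -0.72 and 0.00 over the same 9 values. The first 3 were the members with a far lower level in polysome than in total RNA.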
